A study of Mus musculus with 4 samples.

Results

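The genes described here are 36 genes of the p53 pathway and of apoptosis: p53 itself, its regulators and genes that it is known to activate directly. They were chosen by symbol, as probe sets annotated with exactly 1 of these symbols, and the brightest probe set was kept where a gene had several. Of the 36 genes, 33 were measured here, out of 19938 genes in all. Trp53, Cdkn1a and Bax were not analysed here. The arrays came from E14 mouse embryonic stem cells infected with lentivirus carrying an shRNA against Usp22 (2 arrays, called depleted) or a control shRNA against Luc (2 arrays, called control). Usp22 encodes the deubiquitinating enzyme of SAGA, a coactivator complex of transcription. Both groups grew without feeder cells on gelatin, in medium with serum, LIF, the MEK inhibitor PD0325901 and the GSK3 inhibitor CH99021, the pair of inhibitors known as 2i. The labels name 1 cell line, the pair of shRNA targets and no time after infection, and they do not say whether the 2 arrays of a group came from separate cultures. A p-value given here therefore reflects no more than the scatter of these 4 arrays, and that scatter may be technical.

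The transcription factor p53 is held at a low level by the ubiquitin ligase Mdm2 and its partner Mdm4. DNA damage and other stress release it, and it then switches on genes that stop the cell cycle, repair DNA, restrain oxidative damage or start death through mitochondria and death receptors. It binds DNA as a tetramer, at pairs of a short element called the half-site. Usp22 has been linked to p53 through Sirt1, a deacetylase that acts on p53 and from which Usp22 is reported to remove ubiquitin.

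Promoter sequences are shown for 4 genes that hold a p53 half-site, because 3 of them, Sesn1, Polk and Gtse1, had the largest changes among the genes with such a site, and Mdm2 is the classical feedback target. RefSeq promoters of build GRCm38.p6, from 250 bases before to 50 bases after the start, were found for 25 of the 33 measured genes. The p53 half-site consensus has 10 bases and reads the same on both strands, so that 1 search covers both, and no other motif was searched. It occurred in the promoters of 8 of the 25 genes, or 32.0%, against 9.55% of all 27025 genes in the promoter table. A pair of half-sites with at most 13 bases between them occurred in 0 of the 25 genes and in 0.074% of all genes. Each sequence runs 5′ to 3′ along the gene, with the half-site in capitals. They lie at chr10:41887189-41887488 on the plus strand (Sesn1), chr13:96519138-96519437 on the minus strand (Polk), chr15:85859696-85859995 on the plus strand (Gtse1) and chr10:117710709-117711008 on the minus strand (Mdm2).
Sesn1: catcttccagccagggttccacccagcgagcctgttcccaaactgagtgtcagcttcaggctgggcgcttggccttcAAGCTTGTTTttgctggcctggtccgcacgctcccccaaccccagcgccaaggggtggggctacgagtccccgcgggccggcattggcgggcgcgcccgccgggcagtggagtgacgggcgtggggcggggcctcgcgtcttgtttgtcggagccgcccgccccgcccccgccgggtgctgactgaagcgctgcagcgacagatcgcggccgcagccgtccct
Polk: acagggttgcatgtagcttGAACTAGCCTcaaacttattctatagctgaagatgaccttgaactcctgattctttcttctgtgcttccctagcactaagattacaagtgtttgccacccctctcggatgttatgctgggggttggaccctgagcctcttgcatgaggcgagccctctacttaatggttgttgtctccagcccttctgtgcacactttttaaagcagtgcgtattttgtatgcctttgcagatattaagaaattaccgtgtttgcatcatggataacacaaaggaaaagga
Gtse1: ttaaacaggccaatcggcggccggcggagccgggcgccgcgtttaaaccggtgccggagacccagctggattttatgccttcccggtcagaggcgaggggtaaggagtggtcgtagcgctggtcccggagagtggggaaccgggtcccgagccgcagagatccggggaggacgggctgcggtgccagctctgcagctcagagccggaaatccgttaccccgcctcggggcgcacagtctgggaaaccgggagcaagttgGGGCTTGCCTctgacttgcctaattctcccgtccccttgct
Mdm2: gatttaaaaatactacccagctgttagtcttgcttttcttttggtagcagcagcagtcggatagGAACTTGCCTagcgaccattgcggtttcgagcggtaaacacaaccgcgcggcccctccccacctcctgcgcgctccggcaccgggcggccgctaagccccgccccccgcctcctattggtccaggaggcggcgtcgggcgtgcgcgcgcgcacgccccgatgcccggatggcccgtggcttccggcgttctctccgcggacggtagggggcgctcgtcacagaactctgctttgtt

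The site began 173 bases before the start in Sesn1, 231 before it in Polk and 186 before it in Mdm2. In Gtse1 it lay after the start, from base 10 on. The other 4 genes with a half-site were Ccng1 (gggCAAGcct, 185 bases before the start), Gadd45a (gggCTAGccc, 40 before), Ei24 (gggCATGccc, 10 before) and Aen (gggCTTGtcc, 121 before the second of its listed starts), with the core of the site in capitals. Of the 8 genes, 7 had a positive and 1 a negative log2 fold change (depleted minus control), with a median of 0.29. Of the 17 genes without a match, 8 were positive and 9 negative, with a median of −0.11. Pmaip1, which had the largest change of the 33 genes (1.04), had no promoter in the promoter table and is in neither set. Without control replicate 2, the 8 genes were 6 positive and 2 negative with a median of 0.17, and the 17 genes were 6 positive and 11 negative with a median of −0.17. Of all 19938 genes, 42.6% were positive, with a median of −0.12, and the changes of other genes with a half-site were not examined. These are counts over a window of 300 bases and were not tested, and many p53 sites lie outside such windows.

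Usp22 itself was lower on both depleted arrays. Its normalized log2 signal was 8.23 and 8.29 on the depleted arrays, against 9.41 and 9.36 on the control arrays. The fall was 2.17-fold (log2 fold change −1.12, limma adjusted p = 0.00826). Markers fixed for pluripotent stem cells lay above the receptor background for 10 of 10 genes, with mean log2 signals of 10.2 and 10.3 on the depleted arrays and of 10.4 and 10.3 on the control arrays. Their log2 fold changes were positive for 5 genes and negative for 5, from −0.50 (Esrrb) to 0.59 (Sox2). By limma adjusted p under 0.05, 0 rose and 0 fell. With an intensity trend in the variance, Sox2 rose and Nanog and Sall4 fell (background 1.64% and 1.43%). The receptor background, 6.99 on the log2 scale, is the 95th percentile of the mean signals of 1194 olfactory and vomeronasal receptor genes. Fibroblast markers lay above it for 4 of 7 genes, with mean log2 signals of 6.80 and 6.83 on the depleted arrays, against 6.90 and 7.17 on the control arrays. Endoderm markers did so for 2 of 5 genes (6.46 and 6.61 on the depleted arrays, against 6.73 and 6.99 on the control arrays), and blood and immune markers for 1 of 4 (6.66 and 6.60 on the depleted arrays, against 6.79 and 7.05 on the control arrays). In each of these 3 lists control replicate 2 had the highest mean, and the part of these markers in the results below was not tested. Control replicate 2 stood apart from the other arrays, at −55.5 on a first principal component with 75.1% of the variance, against 37.0 and 21.9 for the depleted arrays and −3.30 for control replicate 1.

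Of the 33 genes, 1 rose and 0 fell at a limma adjusted p under 0.05, beside 2.62% of all genes that rose and 0.105% that fell. With an intensity trend in the variance, 1 rose and 1 fell (background 1.64% and 1.43%). The gene that rose was Pmaip1. Before adjustment, 9 of the 33 had a limma p under 0.05 with a positive change and 4 with a negative one, beside 15.4% and 6.63% of all genes. The log2 fold changes ran from −0.61 (Trp73) to 1.04 (Pmaip1), 20 of them positive and 13 negative. Their median was 0.22, against −0.12 over all genes. Groups did not overlap for 14 genes in the higher direction (42.4%, background 27.4%) and for 8 in the lower direction (24.2%, background 33.3%). Among the 89 further pathway genes described below, these shares were 42.7% and 28.1%. Of the 33 genes, 28 lay above the receptor background, against 9736 of all 19938 genes. All genes, the background here and for the median, thus hold a larger share of dim genes.

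Much of this spread came with a single control array. Without control replicate 2, the median of the 33 genes was 0.01 and that of all genes −0.05. Without control replicate 1, the medians were 0.40 and −0.15. By limma adjusted p, 0 of the 33 rose and 0 fell without control replicate 2 (background 0.331% and 0.0100%), while 14 rose and 6 fell without control replicate 1 (background 24.5% and 21.2%). Control replicate 2 was the outermost array, on the side away from the depleted arrays, for 26 of the 33 genes (78.8%), as for 76.6% of all genes. The gap between the 2 control arrays was larger than the change between groups for 18 of the 33 genes (54.5%), as for 49.8% of all genes.

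**Figure D1:**
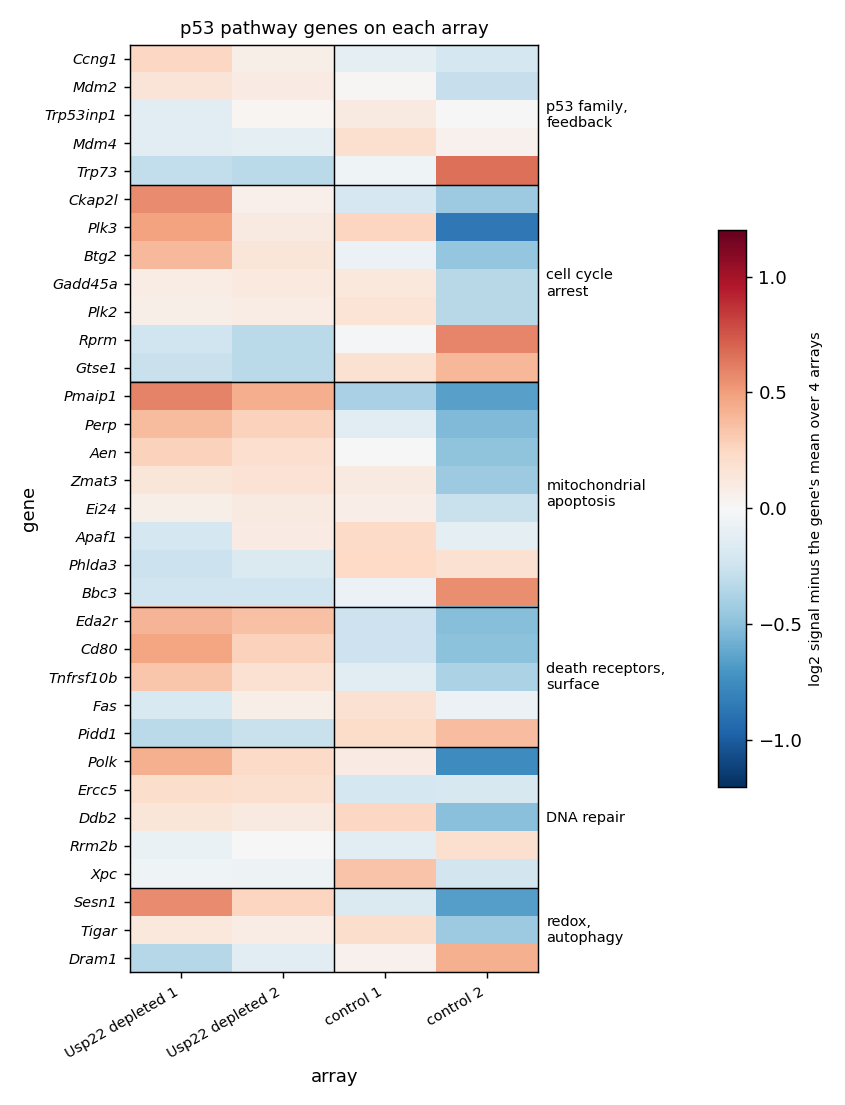
Normalized log2 signal of the 33 measured genes on each array, minus the gene's own mean over the 4 arrays (colour scale), with genes grouped by role in rows and the 2 Usp22 depleted and 2 control arrays in columns. Many of the strongest colours lie in the column of control replicate 2, which was the outermost array for 26 of the 33 genes. Both depleted arrays are apart from both control arrays for 22 of the 33 genes, as for 12095 of all 19938 genes. Among the 22 are Pmaip1, Eda2r and Cd80 (higher) and Pidd1 and Gtse1 (lower).

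The p53 family and its feedback regulators stood on both sides of 0, and 0 of 5 passed the test in either direction (2 positive, 3 negative). Their median was −0.11, and 0.15 with each array centred on its median. Mdm2, which marks p53 for degradation and is itself switched on by p53, had log2 signals of 9.41 and 9.36 on the depleted arrays, against 9.27 and 8.98 on the control arrays. Both depleted arrays lay above both control arrays, but the nearest depleted and control values were closer to each other than the control arrays were. The log2 fold change of Mdm2 was 0.26 (95% interval −0.27 to 0.78, limma adjusted p = 0.503), and 0.11 without control replicate 2. Mdm4, the partner that restrains p53, stood at −0.25 (limma adjusted p = 0.525), with both depleted arrays below both control arrays, and at −0.02 with each array centred on its median. Ccng1, a cyclin G that is a classical p53 target, stood at 0.33 (limma adjusted p = 0.407), also without overlap. Trp53inp1, which promotes p53 activity under stress, stood at −0.11 with overlapping groups, and at 0.15 with each array centred on its median.

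Trp73 encodes p73, a p53 relative that binds the same DNA elements. Its log2 signals were 7.20 and 7.17 on the depleted arrays, against 7.44 and 8.15 on the control arrays. The groups did not overlap, and control replicate 2 was far above the other 3 arrays. The log2 fold change was −0.61 (limma adjusted p = 0.168), and −0.25 without control replicate 2.

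Of the 7 measured genes listed under cell cycle arrest, 0 rose and 0 fell, with 5 positive, 2 negative and a median of 0.21, which was −0.02 without control replicate 2. The list also holds Ckap2l and Gtse1, genes of the mitotic spindle, which had its highest and its lowest change. Ckap2l, which encodes a spindle protein of mitosis, had log2 signals of 8.19 and 7.68 on the depleted arrays, against 7.42 and 7.19 on the control arrays. Each depleted array was above each control array, and depleted replicate 1 was the highest. The log2 fold change was 0.63 (limma adjusted p = 0.158), and 0.38 without that array. Btg2, an antiproliferative gene and immediate p53 target, stood at 0.54 without overlap (limma adjusted p = 0.220), and at 0.34 without control replicate 2. The polo-like kinase gene Plk3 stood at 0.60, but its control arrays read 6.73 and 5.62, so that the value was 0.04 without control replicate 2, and its mean lay under the receptor background. Its relative Plk2 and the DNA damage gene Gadd45a stood at 0.16 and 0.21 with overlapping groups, and at −0.09 and −0.02 without that array.

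Both lower genes of this group were without overlap. Gtse1, which restrains p53 in G2 and takes part in mitotic spindle dynamics, had log2 signals of 9.19 and 9.13 on the depleted arrays, against 9.64 and 9.85 on the control arrays. Its log2 fold change was −0.58 (limma adjusted p = 0.186), and −0.48 without control replicate 2. When the variance of limma was allowed to follow the signal (intensity trend), Gtse1 passed the threshold (adjusted p = 0.0219), the only one of the 33 genes that did so in the lower direction in that fit, beside Pmaip1 in the higher direction (0.0489). Rprm, known for arrest in G2, stood at −0.56 (limma adjusted p = 0.201), and at −0.26 without control replicate 2.

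Pmaip1 was the gene that rose. It encodes Noxa, a BH3-only protein, which frees the mitochondrial death pathway by binding anti-apoptotic members of the Bcl2 family. The deposited intensities of Pmaip1 were 140.5 and 129.6 on the depleted arrays, against 77.1 and 68.7 on the control arrays. On the normalized log2 scale these were 7.21 and 7.05 on the depleted arrays, against 6.22 and 5.96 on the control arrays. Both depleted arrays were above both control arrays by more than the spread within either group, although the mean over the 4 arrays lay under the receptor background. Pmaip1 was 2.05-fold higher in depleted cells (7.13 ± 0.11 against 6.09 ± 0.19 in control cells, SD, n = 2 each), with a log2 fold change of 1.04 (95% interval 0.51 to 1.56, limma adjusted p = 0.0167). With any single array removed, the log2 fold change of Pmaip1 lay between 0.90 and 1.17. The call ended with plain log2 values in place of quantile normalization (limma adjusted p = 0.0924).

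The other BH3-only gene among the p53 targets did not share this direction. Bbc3, which encodes Puma, had log2 signals of 7.47 and 7.46 on the depleted arrays, against 7.63 and 8.26 on the control arrays. The depleted arrays lay below both control arrays, and control replicate 2 was the highest. Its log2 fold change was −0.48 (95% interval −1.005 to 0.05, limma adjusted p = 0.258), and −0.17 without control replicate 2.

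Of the 8 measured genes listed under mitochondrial apoptosis, 5 were positive and 3 negative, with a median of 0.25, and of 0.03 without control replicate 2. The name of the list is loose, since it also holds genes of other sites, described below. Its BH3-only genes Pmaip1 and Bbc3 and the caspase scaffold gene Apaf1 stood at 1.04, −0.48 and −0.12. Perp, a tetraspan membrane protein gene that p53 activates during apoptosis, had log2 signals of 8.16 and 8.05 on the depleted arrays, against 7.65 and 7.24 on the control arrays. The groups did not overlap, and the log2 fold change was 0.66 (limma adjusted p = 0.142), or 0.45 without control replicate 2. The apoptotic nuclease gene Aen stood at 0.48 without overlap (0.23 without control replicate 2). Zmat3, an RNA-binding zinc finger gene, and Ei24, a gene of the endoplasmic reticulum, stood at 0.32 and 0.18, and at 0.05 and 0.01 without that array. Phlda3, an inhibitor of Akt signalling, was lower without overlap, at −0.42 (limma adjusted p = 0.304), and at −0.45 without control replicate 2 but −0.20 with each array centred on its median. Apaf1, the scaffold on which caspase-9 is activated, stood at −0.12 with overlapping groups, and at 0.039 with each array centred on its median.

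**Figure D2:**
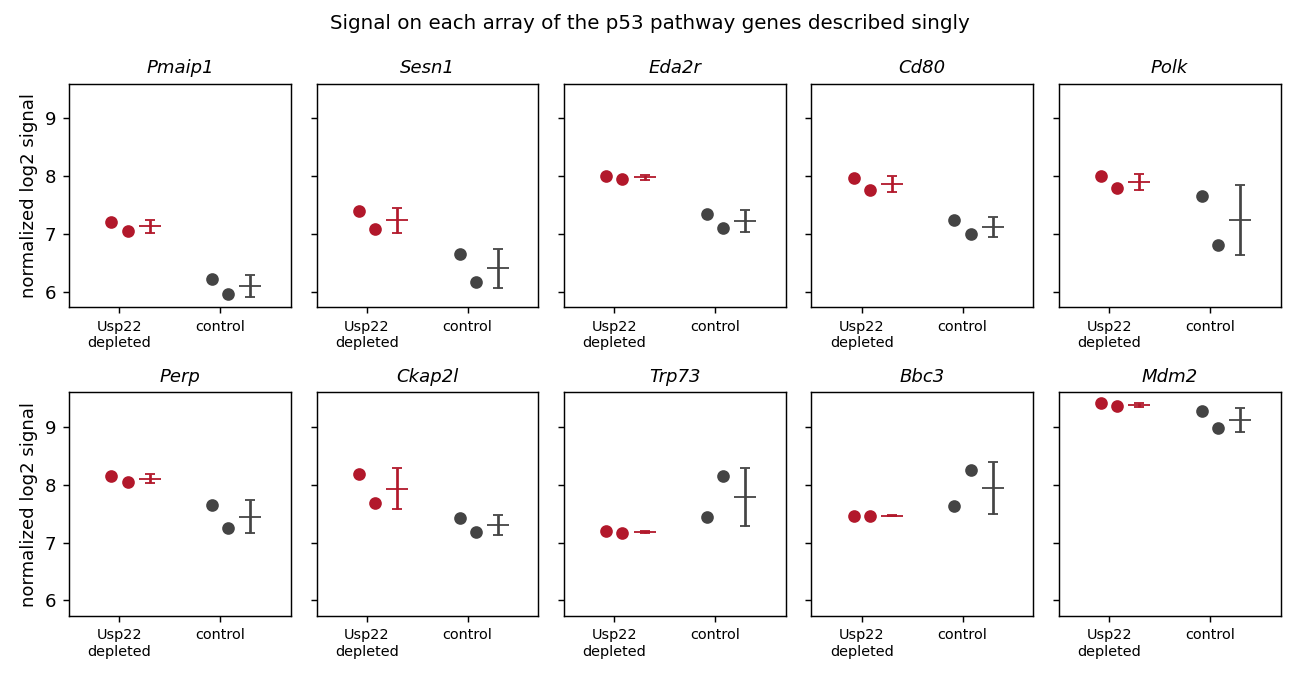
Normalized log2 signal on each array for 10 genes described singly, with the 2 Usp22 depleted arrays (red) left of the 2 control arrays (grey); points are arrays, and bars beside them give the mean and SD of each group (n = 2 each). Pmaip1 reads 7.21 and 7.05 on the depleted arrays, against 6.22 and 5.96 on the control arrays, while Trp73 and Bbc3 spread mainly through control replicate 2.

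Among the genes listed as death receptors and surface proteins, 3 of 5 were positive and 2 negative, with a median of 0.51, and 0 rose or fell. The list also holds Pidd1, whose protein activates a caspase. Eda2r, the receptor of ectodysplasin A2 in the TNF receptor family, had log2 signals of 8.01 and 7.95 on the depleted arrays, against 7.35 and 7.09 on the control arrays. The groups were apart by more than their own spread, and the log2 fold change was 0.76 (limma adjusted p = 0.0897). Cd80, a ligand that co-stimulates T cells, had log2 signals of 7.96 and 7.76 on the depleted arrays, against 7.23 and 6.99 on the control arrays. Its log2 fold change was 0.75 (limma adjusted p = 0.0925), and its second probe set gave 0.81. Without control replicate 2, Eda2r and Cd80 each stood at 0.63. Both passed with each array centred on its median (limma adjusted p = 0.0430 for Eda2r and 0.0484 for Cd80) and with the dimmer 0.5 of all genes left out (0.0319 and 0.0332). Neither passed on plain log2 values (limma adjusted p = 0.148 and 0.153) or with the intensity trend (0.0873 and 0.0989).

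Tnfrsf10b, a receptor of the death ligand Trail, stood at 0.51 without overlap (limma adjusted p = 0.237). Fas, the receptor of Fas ligand, stood at −0.11 with overlapping groups. Pidd1, whose protein activates caspase-2 after DNA damage, had log2 signals of 7.76 and 7.81 on the depleted arrays, against 8.30 and 8.45 on the control arrays. Its log2 fold change was −0.59 (limma adjusted p = 0.182), and −0.51 without control replicate 2.

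Of the 5 genes of DNA repair and nucleotide supply, 0 rose and 0 fell, and the median was 0.26 (0.09 without control replicate 2). Polk, a DNA polymerase that copies past damaged bases, had log2 signals of 7.99 and 7.80 on the depleted arrays, against 7.66 and 6.81 on the control arrays. The nearest arrays of the groups were close to each other, and the log2 fold change was 0.66 (limma adjusted p = 0.137), against 0.23 without control replicate 2. Ercc5, the endonuclease XPG of nucleotide excision repair, had the tightest groups of the 33 genes by the SD within groups. Its log2 signals were 7.93 and 7.92 on the depleted arrays, against 7.51 and 7.53 on the control arrays. Its log2 fold change was 0.40 (limma adjusted p = 0.320), and it ran from 0.40 to 0.41 with any 1 array left out. The standard error of 0.27 on the log2 scale was shared by all genes in this fit, so that tight groups did not lower the p of a single gene. Ddb2 and Xpc, which recognise damaged DNA, stood at 0.26 and −0.12, and Rrm2b, a subunit of the ribonucleotide reductase that p53 induces, at −0.07. All 3 had overlapping groups.

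Sesn1, a stress sensor that restrains the growth kinase complex mTORC1, had log2 signals of 7.39 and 7.08 on the depleted arrays, against 6.64 and 6.16 on the control arrays. Both depleted arrays were above both control arrays, with the mean over the 4 arrays under the receptor background. The log2 fold change was 0.83 (95% interval 0.30 to 1.36, limma adjusted p = 0.0595), and 0.59 without control replicate 2. It passed with each array centred on its median (limma adjusted p = 0.0468). Tigar, which lowers glycolytic flux, stood at 0.22 with overlapping groups, and at −0.10 without control replicate 2. Dram1, a lysosomal protein gene of autophagy, was lower without overlap, at −0.48 (limma adjusted p = 0.260), and at −0.29 without control replicate 2.

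Of the 22 genes without overlap, 13 (59.1%) had a change that shrank by at most 1.5 times or grew when control replicate 2 was left out, near the 55.8% among all genes without overlap. They were 9 higher genes (Pmaip1, Sesn1, Eda2r, Cd80, Perp, Ckap2l, Tnfrsf10b, Ercc5 and Ccng1) and 4 lower genes (Pidd1, Gtse1, Phlda3 and Mdm4). Of all 33 genes, 5 (15.2%) changed sign without that array, against 16.8% of all genes: Gadd45a, Plk2, Ddb2, Tigar and Rrm2b. With each array centred on its median, the log2 fold changes of Gtse1, Phlda3, Dram1 and Mdm4 were −0.36, −0.20, −0.31 and −0.02, and those of Mdm2, Ccng1, Zmat3 and Ei24 were 0.48, 0.54, 0.49 and 0.40.

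**Figure D3:**
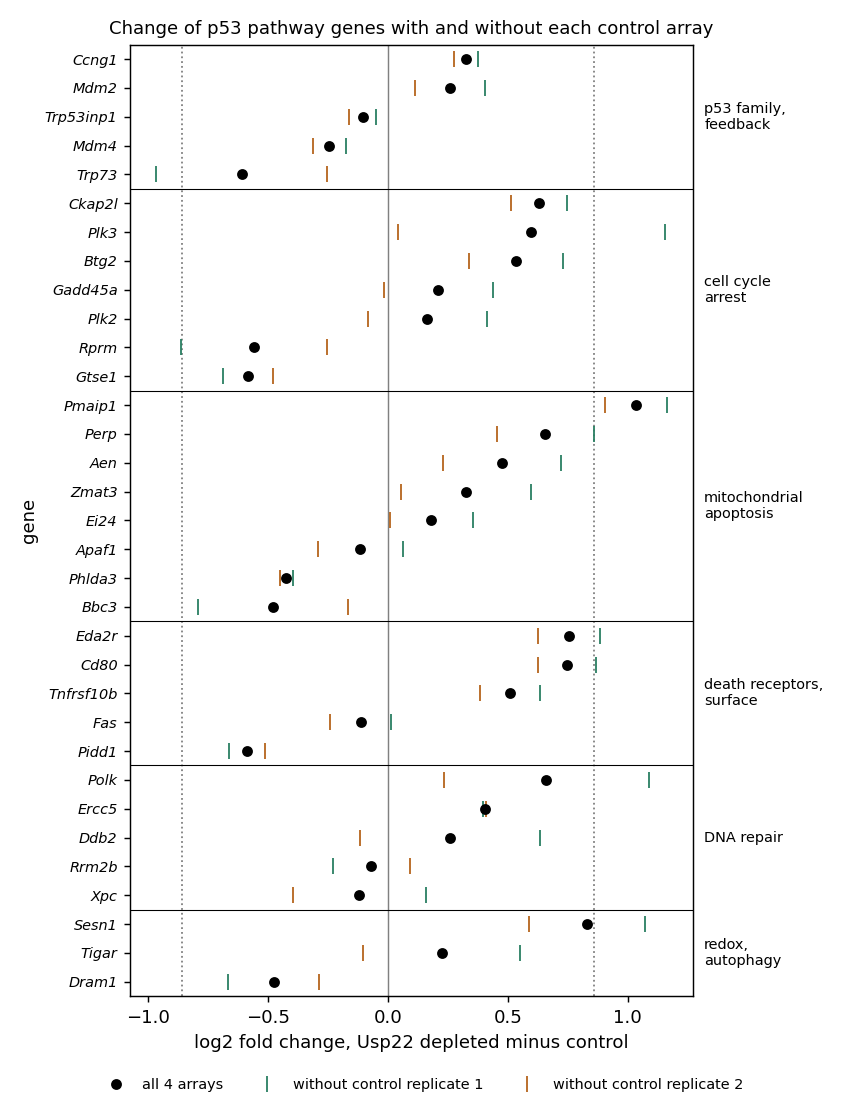
Log2 fold change (Usp22 depleted minus control) of each measured gene, by role, from all 4 arrays (points) and without control replicate 1 (green ticks) or control replicate 2 (brown ticks). Dotted lines stand at the smallest change called among all genes in the fit of 4 arrays, 0.86 in size, which only Pmaip1 passes in that fit; the brown tick lies nearer to 0 than the point for most genes.

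The wider pathway was read from 96 further genes in 7 lists, of which 89 were measured. Of these, 1 rose and 0 fell (background 2.62% and 0.105%), with 52 positive, 37 negative and a median of 0.15, which was 0.06 without control replicate 2. The gene that rose was Bcl2l11, which encodes the BH3-only protein Bim. Its log2 signals were 7.40 and 7.32 on the depleted arrays, against 6.65 and 6.18 on the control arrays, and its mean lay under the receptor background. The groups did not overlap, and the log2 fold change was 0.95 (limma adjusted p = 0.0293), or 0.72 without control replicate 2. The call ended on plain log2 values (limma adjusted p = 0.119) and with the intensity trend (0.0640).

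The 14 genes of the Bcl2 family had a median of 0.13, and of −0.03 without control replicate 2. Bcl2, the founding anti-apoptotic gene, had log2 signals of 9.01 and 9.14 on the depleted arrays, against 9.32 and 10.01 on the control arrays. It stood at −0.59 (limma adjusted p = 0.180), and at −0.25 without control replicate 2 and −0.37 with each array centred on its median. With the intensity trend it passed the threshold (limma adjusted p = 0.0242). The BH3-only gene Hrk stood at −0.52, at −0.34 with arrays centred by their medians, and at −0.17 without control replicate 2.

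Among 16 p53 kinases and cofactors, 0 rose and 0 fell, and the median was 0.14 (−0.0045 without control replicate 2). Prkdc, the catalytic subunit of the DNA-dependent protein kinase, stood at 0.79 (limma adjusted p = 0.0744, and 0.65 without control replicate 2). The damage kinase gene Atr stood at 0.67 (limma adjusted p = 0.131). Sirt1, the deacetylase named above, had log2 signals of 8.04 and 7.78 on the depleted arrays, against 7.67 and 6.61 on the control arrays. Control replicate 2 was far below the other 3 arrays. The log2 fold change of Sirt1 was 0.77 (limma adjusted p = 0.0842), and 0.24 without that array.

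Of 11 genes for ubiquitin ligases, deubiquitinases, phosphatases and ribosomal proteins that act on p53 or Mdm2, 0 rose and 0 fell. Rchy1, a ubiquitin ligase of p53, stood at 0.61 (0.25 without control replicate 2). Usp7, the deubiquitinase of p53 and Mdm2, stood at 0.55 (0.35 without control replicate 2), and Huwe1, another p53 ligase, at −0.52 (limma adjusted p = 0.206 and 0.228). Huwe1 passed with the intensity trend (limma adjusted p = 0.000658), and stood at −0.28 with each array centred on its median. In the same list Trim28 (−0.48) and Rpl5 (0.38) also passed with the trend (limma adjusted p = 0.000167 and 0.0230). With each array centred on its median they stood at −0.21 and 0.63. Of 26 further p53 targets, 0 rose and 0 fell, with a median of 0.13 (−0.03 without control replicate 2). Gpx1, at −0.52, passed with the intensity trend (limma adjusted p = 0.000342), and stood at −0.27 with each array centred on its median. The epoxide hydrolase gene Ephx1 stood at 0.72, the cytokine gene Lif at 0.66 (0.41 without depleted replicate 1, mean under the receptor background) and Bloc1s2 at 0.60 (0.39 without control replicate 2).

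Caspases and apoptosome genes were positive for 7 of 8, with a median of 0.25 (0.12 without control replicate 2) and 0 that rose or fell. The executioner caspase gene Casp6 stood at 0.78 (limma adjusted p = 0.0815), with its mean under the receptor background, and the cytochrome c gene Cycs and the nuclease gene Endog each at 0.48, with Endog at 0.27 without control replicate 2. With the intensity trend, Cycs passed the threshold (limma adjusted p = 0.0489). Of 5 inhibitors of apoptosis, 0 rose and 0 fell, with 3 positive and 2 negative. Birc3, Birc2 and Xiap, which block caspases or their activation, stood at 0.75, 0.71 and 0.60, and at 0.44, 0.33 and 0.23 without control replicate 2. Birc3 and Xiap lay under the receptor background by their means, and Birc2 stood at 0.35 with its 2 probe sets averaged. The negative genes, Birc6 (−0.38, without overlap) and Birc5 (−0.13, with overlap), lay above the receptor background. With each array centred on its median they stood at −0.16 and 0.14. In the death receptor pathway, 4 of 9 genes were positive and 5 negative, with a median of −0.13 (−0.02 without control replicate 2), and 0 rose or fell. The initiator caspase gene Casp8 stood at 0.79 (limma adjusted p = 0.0757, and 0.52 without control replicate 2), the receptor gene Tnfrsf21 at 0.68 (0.43 without control replicate 2) and the ligand gene Fasl at −0.48. Casp8 and Fasl lay under the receptor background by their means. These medians stand beside the −0.12 of all genes.

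**Figure D4:**
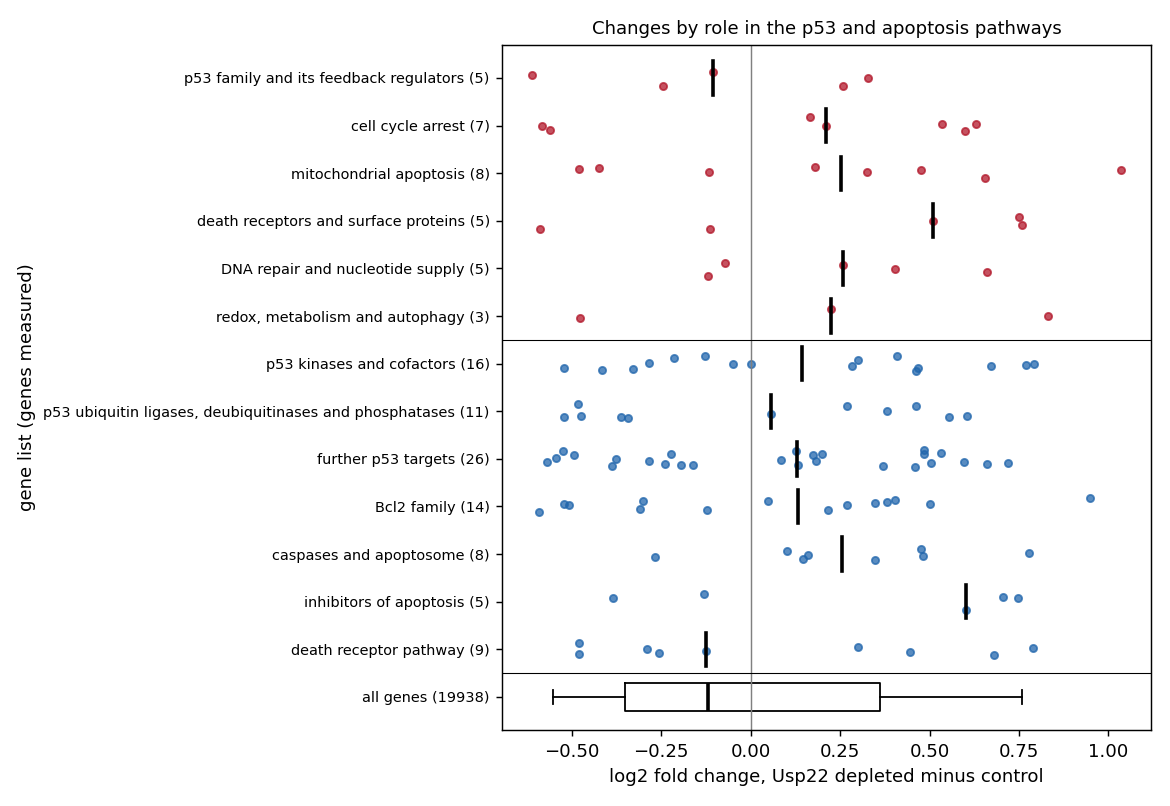
Log2 fold change (Usp22 depleted minus control) of each measured gene in 6 groups of the p53 genes (red) and in 7 further lists (blue), with black bars at the medians, and of all 19938 genes as a box (quartiles and median) with whiskers from the 5th to the 95th percentile. Every list has genes on both sides of 0, and Pmaip1 (1.04) and Bcl2l11 (0.95) lie farthest to the right.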

How the data were processed

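E14 mouse embryonic stem cells were measured on 4 Affymetrix arrays, 2 with Usp22 depletion and 2 controls, grouped by their titles. The deposited intensities are linear, with 1 value for each of 28856 probe sets on every array. Array medians ran from 110 to 128, and the lowest value was 16.0. How the authors summarised, background-corrected and normalized them is not stated in the labels. Log2 intensities were quantile-normalized across the 4 arrays. The median of all genes (depleted minus control) was −0.12 after this step, −0.24 without it and −0.09 after median centring. This median was not subtracted from the fold changes. Probe sets were named through GEO's platform annotation, which can be old: 21789 had 1 symbol, 1621 several and 5446 none here.

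A model of 2 groups was fitted to all genes in R 4.3.3 with limma 3.58.1 (two-sided, Benjamini-Hochberg adjustment over 19938 genes, threshold 0.05), and was first tested on simulated data. With 2 residual and infinite prior degrees of freedom, every gene had the same log2 standard error, 0.27. The smallest p that exact permutation allows for this design is 0.333. The number of arrays limits the precision. The genes and lists were chosen with earlier results of these data known. Values on every array were given for Mdm2 and Bbc3 always, for genes past the threshold and for the 8 p53 genes with the largest change, and for some others chosen after their values were seen. From each further list, genes past the threshold and the 3 with the lowest p were named, and a few others after their values were seen. Alternatives were other scaling, filters on dim genes, averaged probe sets, limma's intensity trend with and without robust settings, the replicate number as a block, and leaving out each array. Promoters came from RefSeq (GRCm38.p6).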

Additional observations from a re-analysis of the deposited data

How the results depend on the processing

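With 2 arrays a group, the calls depended on single arrays. Leaving out 1 array at a time gave from 0 to 14 p53 genes higher and from 0 to 6 lower, and from 0 to 28 further pathway genes higher and from 0 to 10 lower (limma adjusted p under 0.05). The highest counts came without control replicate 1, where 24.5% of all genes were called higher. The median of the p53 genes ran from 0.0069 without control replicate 2 to 0.40 without control replicate 1. Usp22 stayed between −1.15 and −1.09, but its call ended without either depleted array (limma adjusted p = 0.830 and 0.360). For the other scalings, the filters on dim genes and the replicate block, the share of all genes called was not counted. The counts below for these settings therefore have no background beside them. With each array centred on its median, 4 p53 genes and 2 further genes were higher, and the p53 median was 0.36. On the deposited log2 values the counts were 0 and 0. Leaving out the dimmer 0.5 of genes gave 2 and 5, and leaving out genes under the receptor background 2 and 6, where fewer genes were tested. Both filters removed Pmaip1 and Bcl2l11, so that these counts are of other genes, Eda2r and Cd80 among the p53 genes. The intensity trend gave 1 p53 gene lower, with 2 further genes higher and 4 lower, and so did trend and robust settings together. The deviations of the 2 arrays numbered 1 from their group means correlated at 0.105. Those of the arrays numbered 2 are their mirror image and add no second value. The labels do not say that replicate numbers pair the samples. With the replicate block, 2 p53 genes (Sesn1 at a limma adjusted p of 0.0351 beside Pmaip1) and 3 further genes were higher, and Usp22 was unchanged at −1.12.

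Of the genes with small changes, some reversed their sign. With each array centred on its median, Trp53inp1 stood at 0.15 and Apaf1 at 0.039, and on the deposited log2 values Trp53inp1 stood at 0.0084. Over the fits that each left out 1 array, Gadd45a ran from −0.018 to 0.44, Plk2 from −0.085 to 0.41, Ddb2 from −0.12 to 0.63, Tigar from −0.10 to 0.55 and Rrm2b from −0.23 to 0.090, each changing sign without control replicate 2. Apaf1 ran from −0.29 to 0.061, Fas from −0.24 to 0.016 and Xpc from −0.40 to 0.16. The cause was not tested.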
